A study of Mus musculus with 6 samples.

Results

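The expression of 10 adipogenic and lipid handling genes was examined in cardiac fibroblasts (CFs), the cells that produce most of the extracellular matrix of the heart, cultured from wild type (WT) and CharmeKO mice. The genes are *Pparg*, *Cebpa*, *Cebpb*, *Cebpd* and *Zfp423*, which encode regulators of adipogenic fate, *Fabp4*, *Fabp5*, *Lpl* and *Cd36*, which encode proteins of fatty acid binding and uptake, and *Plin2*, which encodes a lipid droplet coat protein. They were chosen by symbol, with earlier results of these data known, and all 10 were found among the 19446 genes of the deposited table. All 10 also passed the filter on low reads (at least 10 reads in at least 2 libraries), which left 15948 genes.

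RNA-seq had been performed on 3 WT and 3 CharmeKO samples of CFs from mice labelled as 5 weeks of age, all grown in IMDM with 20% foetal bovine serum on fibronectin. CharmeKO mice carry a polyadenylation signal inserted in the locus of *Charme*, a long non-coding RNA of muscle that the study describes as not expressed in CFs, and both genotypes are on the C57BL/6J background. According to the methods of the study, explant cultures were started from atrial tissue collected from 6 littermates of an age range that includes the labelled age. The libraries thus stand for atrial cells grown out on coated dishes. How many animals each library holds is not stated in the methods. No further treatment is named for either group, and the labels do not say what libraries with the same replicate number have in common.

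Adipogenesis is controlled by a cascade in which C/EBP-beta and C/EBP-delta, induced early, activate PPAR-gamma and C/EBP-alpha, which then maintain each other and switch on the genes of lipid uptake and storage. Stromal cells of many tissues, including the heart, can enter this programme. Lipoprotein lipase releases fatty acids from circulating triglyceride, CD36 takes them up, the fatty acid binding proteins carry them in the cell, and perilipin 2 coats the droplets in which they are stored. Several of these genes are not restricted to adipocytes. *Cd36*, *Fabp4*, *Fabp5*, *Lpl* and *Plin2* are also known from macrophages, and *Cd36* and *Fabp4* from capillary endothelium.

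Each library held 38330019 to 46797446 reads assigned to genes. *Charme* itself, if it is the single feature that has no Ensembl ID, was covered by 5, 15 and 11 reads in the 3 WT libraries and by 0, 6 and 3 in the 3 CharmeKO libraries. The fibroblast genes *Col1a1* and *Pdgfra* were present in each library, at 394740 to 818672 and 4110 to 10084 normalised reads (gene reads divided by the size factor of the library). Of the variance of all tested genes, 67.8% went with the replicate number and 10.6% with genotype, and same-numbered WT and CharmeKO libraries deviated together from their group means (r = 0.762, 0.514 and 0.217 across genes). WT 2 and CharmeKO 3, which differ in number, reached r = 0.222, so number 3 is weakly paired. With this limit, the libraries numbered 1, 2 and 3 are also described as pairs.

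Against this background, 4 of the 10 genes, *Fabp4*, *Fabp5*, *Cebpb* and *Cebpd*, were higher in CharmeKO in all 3 pairs. None was lower in all 3 pairs (0 genes). Over all tested genes 16.4% were higher in all 3 pairs and 14% lower. *Fabp4* had the largest fold change of the 10 genes, at 154.6 ± 52.97 normalised reads in WT against 900.2 ± 643 in CharmeKO (mean ± SD over 3 libraries each). None of the 10 genes was called with limma after adjustment over all genes (0 of 10, against 0 of 15948 genes or 0%, with 143 genes at an unadjusted p under 0.05, 0 called with edgeR and 8 with DESeq2), and the WT and CharmeKO ranges overlapped for each of them, while 4.11% of all tested genes had ranges that did not overlap. The median log2 fold change of the 10 genes was 0.28, beside 0.0022 over all tested genes, and 6 of the 10 genes (50.4% of all tested genes) had a positive value. Neither the labels nor the RNA-seq methods state that the libraries of a group came from separate cultures. For each experiment, the statistics section of the study gives at least 3 independent primary cell isolations. A supplementary legend that covers panels of this RNA-seq gives 3 independent biological replicates. The p-values measure the spread between these libraries.

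**Figure D1:**
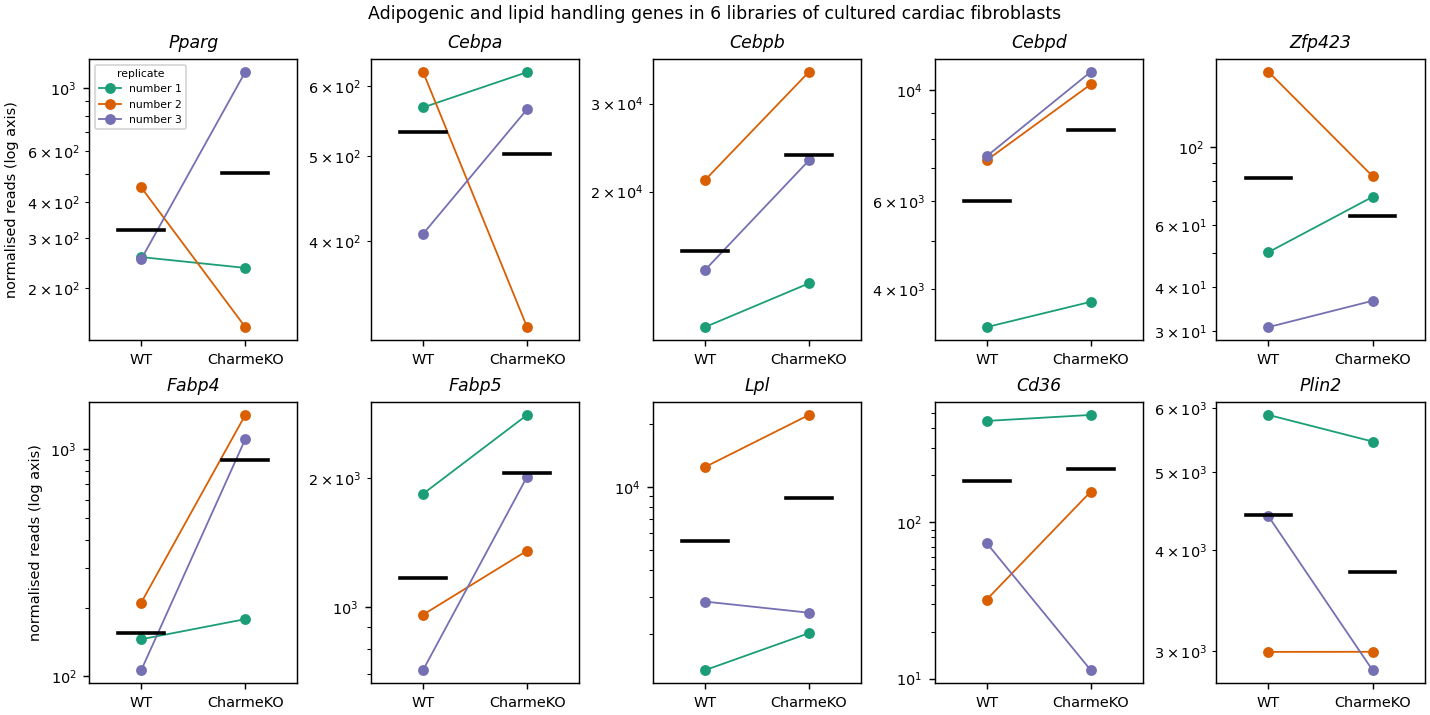
Normalised reads of the 10 genes (y axis, log scale) in WT and CharmeKO libraries (x axis). Points are single libraries, lines join libraries with the same replicate number, and black bars are group means (n = 3). For *Cebpb*, *Cebpd*, *Fabp4* and *Fabp5* all 3 lines go up, while those of *Pparg*, *Cebpa*, *Zfp423* and *Cd36* go in both directions.

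Of the regulators, *Cebpb* was by far the most abundant. *Cebpb* (ENSMUSG00000056501, chromosome 2, 167688915 to 167690418, GRCm38, plus strand) had 10703, 21081 and 13921 normalised reads in WT 1, 2 and 3 and 13098, 34746 and 23099 in CharmeKO 1, 2 and 3. CharmeKO 2 and 3 were above all WT libraries, and CharmeKO 1 lay inside the WT range. Its log2 fold change on the log2(value + 1) scale was 0.58 (SE 0.420, 95% confidence interval -0.43 to 1.59, limma adjusted p = 0.9999). Between same-numbered libraries the log2 difference was 0.29, 0.72 and 0.73 for numbers 1, 2 and 3. The order of the 3 WT libraries (1 lowest, 2 highest) was the order of the 3 CharmeKO libraries too, and 71.4% of the variance of *Cebpb* went with the replicate number against 25.4% with genotype.

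*Cebpd* (ENSMUSG00000071637, chromosome 16, 15887286 to 15891031, plus strand), the other early C/EBP gene, behaved in a similar way. It had 3362, 7250 and 7385 normalised reads in WT 1, 2 and 3 and 3778, 10281 and 10890.1 in CharmeKO 1, 2 and 3. Both libraries numbered 1 were low and the other 2 CharmeKO libraries exceeded every WT library. The log2 fold change was 0.41 (SE 0.503, 95% confidence interval -0.80 to 1.62, limma adjusted p = 0.9999), with differences of 0.17, 0.50 and 0.56 in the 3 pairs. The replicate number held 88.4% of the variance of *Cebpd*, genotype 9.86%, and 1.75% was left over.

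*Cebpa* and *Pparg*, which act later in the cascade, were higher in CharmeKO in some pairs and lower in others. *Cebpa* (ENSMUSG00000034957, chromosome 7, 35119293 to 35121928, plus strand) was the steadiest of the 10 genes, with 567, 622 and 408 normalised reads in WT 1, 2 and 3 and 622, 319.5 and 564 in CharmeKO 1, 2 and 3. The 2 groups covered almost the same range. The log2 fold change was -0.12 (SE 0.327, 95% confidence interval -0.90 to 0.66), and the pair differences were 0.13, -0.96 and 0.47. The sign of this value was positive without WT 2 (0.0045) and without CharmeKO 2 (0.18).

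*Pparg* (ENSMUSG00000000440, chromosome 6, 115360951 to 115490399, plus strand) had 257, 449.5 and 253 normalised reads in WT 1, 2 and 3 and 236, 146 and 1137 in CharmeKO 1, 2 and 3. CharmeKO 3 stood 2.16 log2 units above WT 3, and CharmeKO 2 differed from WT 2 by -1.61, so that the highest and the lowest value of *Pparg* both came from CharmeKO. Its log2 fold change of 0.14 (SE 0.756, 95% confidence interval -1.67 to 1.95) rested on CharmeKO 3, without which it was -0.73. Only 0.585% of its variance went with genotype and 30.3% with the replicate number.

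*Zfp423* (ENSMUSG00000045333, chromosome 8, 87661810 to 87959595, minus strand), which encodes a zinc finger factor of preadipocyte commitment, had the lowest mean of the 10 genes. In WT 2 and CharmeKO 3, *Cd36* was lower than *Zfp423*. *Zfp423* had 50.2, 163 and 30.8 normalised reads in WT 1, 2 and 3 and 72.1, 82.6 and 36.5 in CharmeKO 1, 2 and 3, from 28 to 153 reads. WT 2 was the only library above 100. The log2 fold change was -0.074 (SE 0.699, 95% confidence interval -1.75 to 1.60), and it was 0.60 without WT 2 and 0.28 without CharmeKO 3.

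To show the sequence next to which these regulators are transcribed, the 250 bases before a RefSeq transcript start are given for *Cebpb*, the most abundant gene with the same direction in all pairs, and for *Pparg* at the most downstream of its 3 starts in the table, which lies in an intron of the longer *Pparg* transcripts. Capitals mark matches to the C/EBP core TTGCNNAA on either strand.

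Cebpb, chr2:167688665-167688914, plus strand, GRCm38.p6: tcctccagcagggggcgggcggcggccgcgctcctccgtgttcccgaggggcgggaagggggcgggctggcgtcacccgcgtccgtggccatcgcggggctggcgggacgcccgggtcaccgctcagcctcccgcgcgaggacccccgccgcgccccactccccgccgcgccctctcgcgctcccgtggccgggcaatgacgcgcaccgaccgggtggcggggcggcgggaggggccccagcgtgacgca

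Pparg downstream start, chr6:115421816-115422065, plus strand, GRCm38.p6: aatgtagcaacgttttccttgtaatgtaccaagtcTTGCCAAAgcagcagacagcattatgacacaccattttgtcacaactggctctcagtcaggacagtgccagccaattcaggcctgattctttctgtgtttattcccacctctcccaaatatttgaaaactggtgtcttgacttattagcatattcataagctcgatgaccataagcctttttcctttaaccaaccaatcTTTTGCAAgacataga

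RefSeq windows were found for 6 of the 10 genes (9 windows), with none for *Cebpd*, *Fabp4*, *Fabp5* and *Lpl*. Besides TTGCNNAA, both strands were searched for the direct repeat bound by PPAR and RXR (both repeats AGGNCA, spaced by any base), for GAGGAAGT, the core bound by the myeloid factor PU.1, and for TATAAA, the TATA box. The downstream *Pparg* window held TTGCNNAA at 2 places, with matched plus strand letters TTGCCAAA starting 215 bases and TTTTGCAA starting 16 bases before the start. The *Cebpb* window and the window of the first *Pparg* start held none of the 4 motifs. *Cebpa* and the second *Pparg* start held TATAAA, starting 30 and 29 bases before the start (the latter on the minus strand), and 1 of the 2 *Zfp423* windows held TTGCNNAA at 131 bases. The *Cd36* and *Plin2* windows and the other *Zfp423* window held none. Among 32851 windows of the same length, 9.56% held TTGCNNAA, 0.338% held the PPAR and RXR repeat, 2.44% held GAGGAAGT and 12.4% held TATAAA. A gene count does not say from which start the *Pparg* reads came.

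Of the genes of fatty acid binding and uptake, *Fabp4* was examined first. *Fabp4* (ENSMUSG00000062515, chromosome 3, 10204088 to 10208576, minus strand) encodes the fatty acid binding protein of adipocytes. It had 146, 211 and 107 normalised reads in WT 1, 2 and 3, and 179, 1415 and 1107 in CharmeKO 1, 2 and 3. CharmeKO 2 and CharmeKO 3 were far above every other library, and CharmeKO 1 was within the WT range. The log2 fold change was 2.13 (SE 0.793, 95% confidence interval 0.23 to 4.03), with an unadjusted limma p of 0.0332 and an adjusted p of 0.9999. The differences in pairs 1, 2 and 3 were 0.29, 2.74 and 3.36 log2 units, so pair 1 carried little of it.

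With the replicate number as a block, DESeq2 called *Fabp4* (log2 fold change 2.19, SE 0.589, adjusted p = 0.0451) as the only 1 of the 10 genes, among 64 genes called (0.454% of those with an adjusted p, 0.185% called as higher in CharmeKO). This call was also made without pair 1, the pair with the smallest *Fabp4* difference, in a fit that called 144 genes. DESeq2 did not call *Fabp4* when pair 2 (adjusted p = 0.941) or pair 3 (0.311) was left out. It did not call *Fabp4* without the block either (0.331), where 0.0504% of genes were called. limma and edgeR did not call *Fabp4* with the block (adjusted p = 0.7997 and 0.839).

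*Fabp5* (ENSMUSG00000027533, chromosome 3, 10012548 to 10016607, plus strand), the epidermal type of the same protein family, lies 187.5 kb from *Fabp4*. It had 1835, 961 and 714 normalised reads in WT 1, 2 and 3 and 2799.7, 1354 and 2011 in CharmeKO 1, 2 and 3. CharmeKO 1 and CharmeKO 3 were above all WT libraries, and CharmeKO 2 was below WT 1. The log2 fold change was 0.87 (SE 0.416, 95% confidence interval -0.13 to 1.86, limma adjusted p = 0.9999), and the pair differences were 0.61, 0.49 and 1.49. *Fabp5* was thus the only member of the 4 genes with the same direction in all pairs whose difference in pair 1 exceeded 0.5 log2 units. Of the 50-base stretches of its principal transcript, 21.1% occur in transcripts of 5 other annotated genes, *Fabp5l2* and 4 predicted genes. Reads that lie within these stretches can be lost when only unique alignments are counted, and such loss was not measured.

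Per kb of principal transcript, *Fabp4* made up 8.05%, 19.5% and 14.1% of the sum of *Fabp4* and *Fabp5* in WT 1, 2 and 3, and 6.57%, 53.5% and 37.8% in CharmeKO 1, 2 and 3. *Fabp5* was thus the more abundant of the pair in 5 of the 6 libraries. CharmeKO 2 was the library in which *Fabp4* exceeded it, on this scale of normalised reads per kb.

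*Lpl* (ENSMUSG00000015568, chromosome 8, 68880491 to 68907448, plus strand) had 1339, 12410 and 2841 normalised reads in WT 1, 2 and 3 and 2009, 21973 and 2514 in CharmeKO 1, 2 and 3. Both libraries numbered 2 exceeded all others of either genotype by more than 4-fold. The replicate number held 95.9% of the variance of *Lpl*, the largest share among the 10 genes, and genotype 1.97%. Its log2 fold change was 0.41 (SE 1.14, 95% confidence interval -2.32 to 3.14), with pair differences of 0.58, 0.82 and -0.18, and it was -0.69 without CharmeKO 2 and -0.30 without WT 1. DESeq2 with the block called *Lpl* only when pair 3 was left out (log2 fold change 0.70, adjusted p = 0.0174).

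*Cd36* (ENSMUSG00000002944, chromosome 5, 17781690 to 17888801, minus strand) varied most of the 10 genes, by 43.1-fold between its highest and lowest library. It had 446, 32.0 and 73.6 normalised reads in WT 1, 2 and 3 and 487, 157 and 11.3 in CharmeKO 1, 2 and 3, the last from 13 reads. Both libraries numbered 1 were high and nearly equal. The pair differences were 0.13, 2.26 and -2.60 log2 units, which gave a log2 fold change of -0.071 (SE 1.53, 95% confidence interval -3.74 to 3.60). Its sign turned with a larger pseudocount, with edgeR, with DESeq2 without the block, and without WT 1 or CharmeKO 3, but not with DESeq2 and the block (-0.023).

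*Plin2* (ENSMUSG00000028494, chromosome 4, 86648386 to 86670060, minus strand), which marks the lipid droplet surface, had 5885, 2993 and 4406 normalised reads in WT 1, 2 and 3 and 5455, 2994 and 2841 in CharmeKO 1, 2 and 3. The libraries numbered 2 differed by 0.00041 log2 units, those numbered 1 differed by -0.11, and those numbered 3 by -0.63. The log2 fold change was -0.25 (SE 0.348, 95% confidence interval -1.08 to 0.59). *Plin2* was the only member of the group that was lower in CharmeKO under every alternative tried, from -0.55 to -0.015 with single libraries left out.

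**Figure D2:**
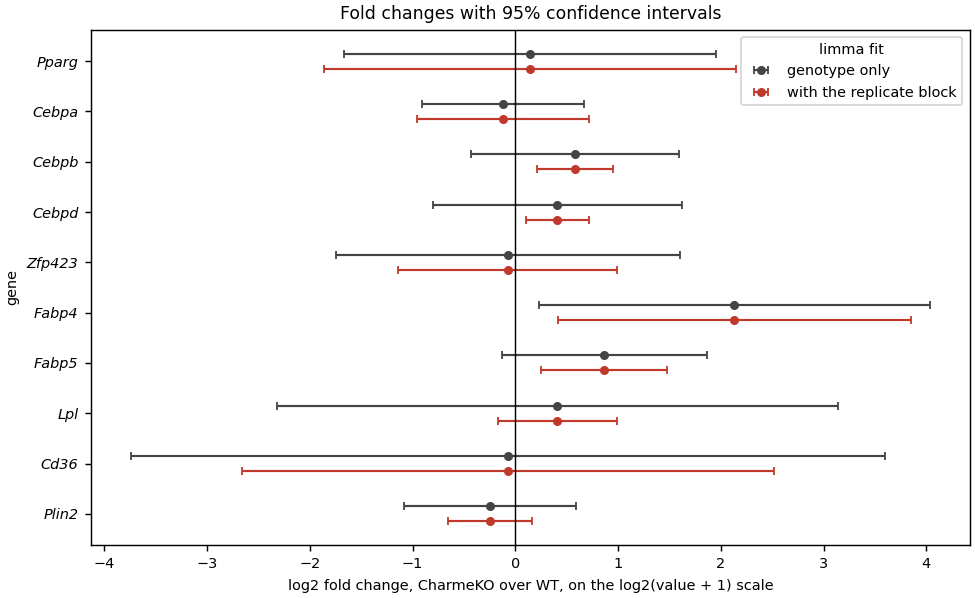
Log2 fold change of CharmeKO over WT (x axis, log2(value + 1) scale) for each gene (y axis), from limma with genotype only (grey) and with the replicate number as a block (red). Points are estimates and bars 95% confidence intervals. The block leaves the estimates where they are, and its intervals of *Cebpb*, *Cebpd*, *Fabp4* and *Fabp5* lie above 0 before any adjustment for the number of genes.

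With the replicate number as a block, limma gave an unadjusted p under 0.05 for 4 of the 10 genes, against 1 of 10 without it. These were *Cebpb* with an unadjusted limma value of 0.0106, *Fabp5* with 0.0159, *Cebpd* with 0.0197 and *Fabp4* with 0.0253, each higher in CharmeKO. Over all tested genes the share was 5.37% with the block (2.14% counting only genes higher in CharmeKO) and 0.897% without it (0.251% higher). The adjusted p was 0.7997 for each of the 4 genes, so no gene was called (0 of 15948 genes, with 857 at an unadjusted p under 0.05). The SE of *Cebpd* was 0.115 with the block and 0.503 without, and that of *Cebpb* 0.137 and 0.420. For *Pparg* it was 0.750 and 0.756, since the *Pparg* libraries did not follow their replicate number.

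**Figure D3:**
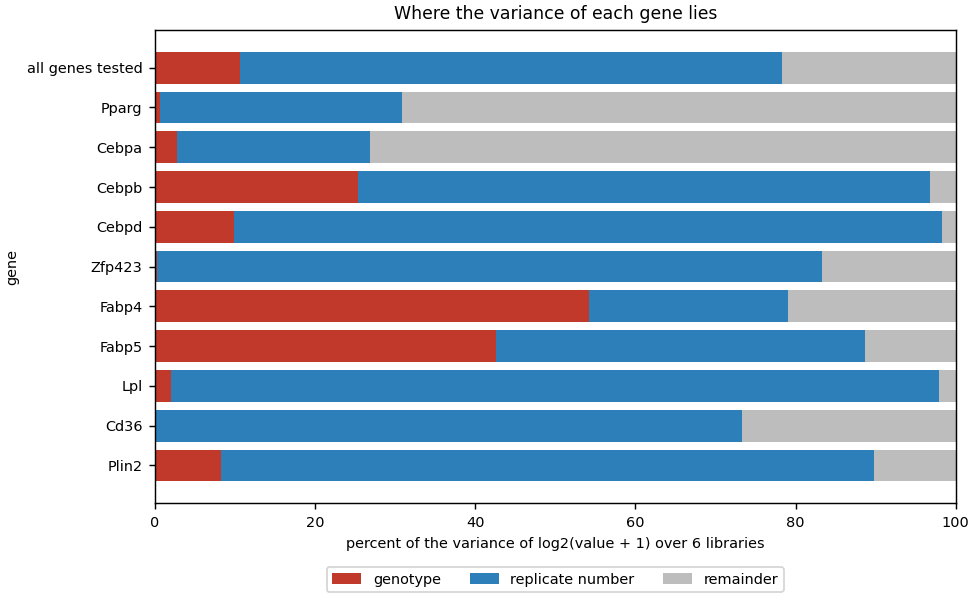
Share of the variance of log2(value + 1) over the 6 libraries (x axis, percent) that goes with genotype (red), with the replicate number (blue) and with neither (grey), for all tested genes together and for each of the 10 genes. Genotype held 54.1% for *Fabp4* and 42.5% for *Fabp5*, and the replicate number held 95.9% for *Lpl*.

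The 10 genes were then ordered by their level per kb of principal transcript, averaged over the 6 libraries, since reads of genes of different length cannot be compared directly. *Cebpb* came first with 12926 normalised reads per kb and lay in the percentile 99.0 of all genes with a length. It exceeded *Plin2* (2169 per kb), the next gene, by 5.96-fold and in all 6 libraries, with ranges that did not overlap. *Plin2*, *Cebpd* (1911 per kb), *Lpl* (1745 per kb) and *Fabp5* (1634 per kb) could not be put in order, as each exceeded the next in only 2 to 4 of the 6 libraries. *Fabp4* had a mean of 589 per kb, *Cebpa* of 197 and *Pparg* of 194, all with overlapping ranges. *Fabp4* was above *Cebpa* in only 2 of the 6 libraries, CharmeKO 2 and CharmeKO 3, so these could not be put in order either. *Cd36* (59.2 per kb) and *Zfp423* (14.8 per kb) came last, and *Cd36* was above *Zfp423* in 4 of the 6 libraries. Among the 3 C/EBP genes, *Cebpb* made up 84.8% ± 3.01 of the sum per kb in WT and 86.5% ± 3.05 in CharmeKO, and *Cebpa* 1.82% ± 0.701 and 1.34% ± 0.967 (mean ± SD, n = 3).

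Markers of other cell types were examined, because several of the 10 genes are known from macrophages and endothelium. In bulk libraries fewer cells of a type and less RNA per cell cannot be told apart. Of 20 macrophage markers 19 were in the table, and their summed level was 850, 391 and 162 CPM (reads relative to the library total) in WT 1, 2 and 3 and 1384, 1055 and 86.5 CPM in CharmeKO 1, 2 and 3. *Ptprc*, which encodes the leukocyte antigen CD45, was represented by 172, 42 and 27 reads in the WT libraries and by 265, 61 and 0 in the CharmeKO libraries, where 0 reads allow up to 0.0641 CPM. Of the 19 genes 12 were higher and 7 lower in CharmeKO, with a median log2 fold change of 0.096. *Csf1r* and *Cd68* were likewise highest in both libraries numbered 1, at 1427 and 1447 normalised reads for *Csf1r* and 913 and 1513 for *Cd68*.

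*Cd36* was highest in the same 2 libraries (10.5 CPM in WT 1 and 11.3 CPM in CharmeKO 1) and lowest in CharmeKO 3 (0.278 CPM), where the summed macrophage level was lowest too. The order differed elsewhere, since WT 2 had less *Cd36* than WT 3 (0.783 and 1.74 CPM) and more of the macrophage markers, and CharmeKO 2 had less *Cd36* than WT 1 (4.02 and 10.5 CPM) and more of the macrophage markers. As a description over the 6 libraries, r of *Cd36* was 0.867 with the macrophage sum, 0.798 with the endothelial sum and 0.783 with the cardiomyocyte sum. With the macrophage sum, r was -0.12 for *Fabp4*, 0.38 for *Fabp5* and -0.77 for *Pparg*. With the endothelial sum it was -0.44, -0.098 and -0.83 for the same genes. *Fabp4* was at 3.43, 5.17 and 2.52 CPM in WT 1, 2 and 3 and 4.16, 36.1 and 27.2 CPM in CharmeKO 1, 2 and 3. Its highest library, CharmeKO 2, had the second highest macrophage sum, and its next highest, CharmeKO 3, had the lowest. *Pparg* was highest in CharmeKO 3 (27.9 CPM), and *Fabp5* in CharmeKO 1 (65.1 CPM), followed by CharmeKO 3 (49.4 CPM). The part of macrophages in the levels of these 4 genes was not tested.

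**Figure D4:**
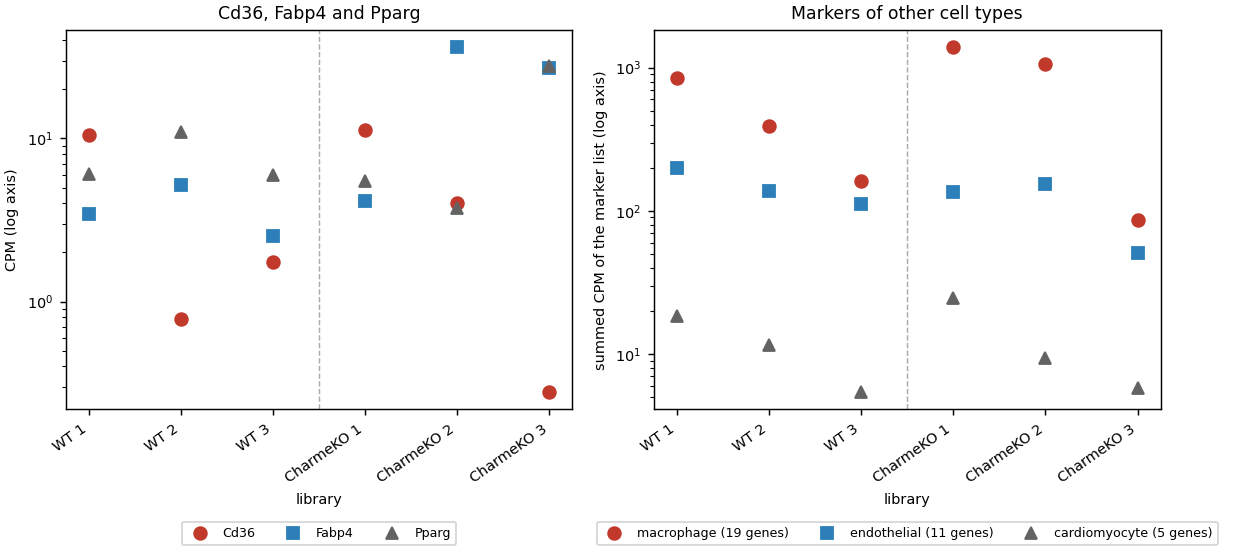
Left, CPM of *Cd36*, *Fabp4* and *Pparg* in each library, and right, the summed CPM of the macrophage, endothelial and cardiomyocyte marker lists in the same libraries (y axes, log scales). Points are single libraries, with WT left and CharmeKO right of the dashed line. *Cd36* and the macrophage sum were both lowest in CharmeKO 3. *Fabp4* was highest in CharmeKO 2 (36.1 CPM), where the macrophage sum was 1055 CPM, and next highest in CharmeKO 3 (27.2 CPM), where it was 86.5 CPM.

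Of 15 endothelial markers 11 were in the table, with a summed level of 112.2 to 198 CPM in WT and 50.4 to 154 CPM in CharmeKO. Of the 9 tested, 3 were higher and 6 lower, with a median of -0.54. The defining gene *Pecam1* had 2 to 6 reads per library and did not pass the filter, and *Cdh5* had 0 reads in WT 2 and in CharmeKO 3. *Kdr* had 56.1, 79.0 and 62.6 normalised reads in WT 1, 2 and 3 and 61.5, 31.5 and 24.4 in CharmeKO 1, 2 and 3. Of the 2 libraries with the most *Fabp4*, CharmeKO 2 had the second highest endothelial sum (154 CPM, with 26 *Cdh5* reads) and CharmeKO 3 the lowest (50.4 CPM). The part of endothelial cells in the *Fabp4* level was not tested. Of 10 cardiomyocyte markers 5 were in the table, with a sum of 5.40 to 18.5 CPM in WT and 5.75 to 24.5 CPM in CharmeKO. Of the 4 tested, 3 were higher and 1 lower, with a median of 0.12. *Myh6* was not among them, and *Tnnt2* had 57.1 to 571 normalised reads in WT and 129 to 757 in CharmeKO. Of 12 fibroblast markers 6 were higher and 6 lower, with a median of -0.090. Their summed level was 21154, 42276 and 29341 CPM in WT 1, 2 and 3 and 27170, 40382 and 34591 CPM in CharmeKO 1, 2 and 3. As a description, r with this sum was 0.883 for *Cebpb*, 0.876 for *Lpl*, 0.812 for *Cebpd* and -0.922 for *Plin2*. For the other genes it lay between -0.637 (*Cd36*) and 0.583 (*Fabp4*). None of the 4 marker lists had a gene called with limma (0 genes).

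Genes of mature adipocytes were mostly not listed. Of 14 adipocyte markers 6 were in the table and 5 passed the filter, and neither *Adipoq*, which encodes adiponectin, nor *Plin1*, the perilipin of adipocyte droplets, was listed among the 19446 genes. Of the 5 tested, 2 were higher and 3 lower in CharmeKO with a median log2 fold change of -0.026, and none was called (0 genes). *Lipe*, which encodes hormone-sensitive lipase, had 209, 341 and 281 normalised reads in WT 1, 2 and 3 and 194, 327 and 386 in CharmeKO 1, 2 and 3. *Plin4* had 375, 1029 and 102 in WT and 211, 196 and 836 in CharmeKO, with pair differences of -0.83, -2.39 and 3.02 log2 units. *Aoc3* was at -1.11 (SE 1.12) and *Adrb3* at 0.91 (SE 0.612) on the log2 scale, the latter from 10 to 47 reads per library.

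The other genes of the pathway were taken from lists, of which 5 besides the adipocyte markers were tested. None of their genes was called with limma in either direction (0 genes in each list), and none with DESeq2 and the block (0 genes). With the block, some genes had an unadjusted limma p under 0.05. They were 2 of 28 regulators, 2 of 14 uptake genes, 2 of 14 lipid droplet genes and 1 of 11 oxidation genes, each higher in CharmeKO. Of 7 synthesis genes there were 2, *Scd2* (higher) and *Me1* (lower). Over all tested genes the share was 5.37%, or 2.14% counting only genes higher in CharmeKO. Of 28 other adipogenic regulators 16 were higher and 12 lower in CharmeKO, with a median log2 fold change of 0.038. *Gata2*, which encodes a factor that holds preadipocytes back from differentiation, had 630, 483 and 1157 normalised reads in WT 1, 2 and 3 and 692, 1963 and 2807 in CharmeKO 1, 2 and 3. As for *Fabp4*, CharmeKO 2 and 3 were above every WT library and CharmeKO 1 was not. Its log2 fold change was 1.15 (SE 0.574, limma adjusted p = 0.9999), and its unadjusted limma p was 0.0891 without and 0.0343 with the block. *Prdm16*, a regulator of brown fat identity, was at -0.88 (SE 0.707) from 6 to 43 reads per library. *Klf6*, an early response gene and among the most abundant of the list, was at -0.13 (SE 0.246).

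In the list of fatty acid uptake and lipoprotein handling, 9 of 14 tested genes were higher and 5 lower, with a median of 0.051. *Lrp1*, a lipoprotein receptor gene and the most abundant of the list, was at -0.12 (SE 0.411), and *Abca1*, which encodes a cholesterol exporter, at 0.59 (SE 0.470). *Acsl4*, which encodes an enzyme that activates long-chain fatty acids, was at -0.32 (SE 0.227). In the list of lipid droplet and lipolysis genes, 8 of 14 were higher and 6 lower, with a median of 0.090. *Dgat2*, which encodes the enzyme of the last step of triglyceride synthesis, had 196, 162 and 231 normalised reads in WT 1, 2 and 3 and 243, 286 and 457 in CharmeKO 1, 2 and 3. The *Dgat2* ranges of WT and CharmeKO did not overlap, although they came close (231 against 243), and neither did those of *Dgat1*. This held for 2.14% of all tested genes in the same direction. Its log2 fold change was 0.70 (SE 0.327, limma adjusted p = 0.9999), beside 0.22 (SE 0.161) for *Dgat1*. *Plin3* and *Soat1* were at -0.033 (SE 0.237) and -0.070 (SE 0.182).

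Of 7 tested synthesis genes 4 were higher and 3 lower, with a median of 0.013. *Fasn*, which encodes fatty acid synthase, was at -0.058 (SE 0.200), *Scd2*, a desaturase gene, at 0.31 (SE 0.542) and *Me1*, which encodes malic enzyme, at -0.26 (SE 0.253). Of 11 tested genes of oxidation and PPAR response 8 were higher and 3 lower, with a median of 0.082. *Cpt1a*, which encodes the enzyme of mitochondrial fatty acid entry, was at 0.082 (SE 0.244). *Ech1* was at 0.39 (SE 0.216), and *Pdk4*, a known PPAR target, at -0.70 (SE 0.700), with 273, 754 and 1767 normalised reads in WT 1, 2 and 3 and 257, 589 and 557.5 in CharmeKO 1, 2 and 3.

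The 10 genes did not form a single pattern over the 6 libraries. *Cebpb*, *Cebpd* and *Lpl* were all low in both libraries numbered 1, and *Plin2*, *Fabp5* and *Cd36* were all highest in these libraries or in 1 of them. As a description over 6 libraries that share their pairing, Pearson's r of the log2 values was 0.856 for *Cebpb* and *Cebpd*, 0.869 for *Cebpb* and *Fabp4*, 0.847 for *Cebpb* and *Lpl*, and -0.923 for *Cebpd* and *Plin2*. It was 0.246 for *Fabp4* and *Fabp5*, and 0.226 for *Pparg* and *Fabp4*. Among 11544 genes with a symbol and a mean of at least 100 normalised reads, those most like *Fabp4* were *Marchf5* (r = 0.993), *Itm2c* (0.986) and *Emc9* (0.978). Those most like *Cebpb* were *Sbsn* (0.999), *Pcx* (0.996) and *Xpnpep3* (0.994), and those most like *Cd36* were *Scamp3* (0.998), *Ripk3* (0.996) and *Pla2g12a* (0.995). With 6 libraries and this many genes, the highest r was above 0.98 for each of the 10 genes.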

How the data were processed

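RNA-seq libraries of cultured CFs (poly(A)-selected, strand-specific; 3 WT and 3 CharmeKO, grouped by sample title) were analysed. The authors used STAR to align the reads and to count them by gene and strand against Ensembl release 87 with *Charme* added, dropped sparsely covered genes and applied DESeq2 normalisation. Versions of STAR and DESeq2 are not given in the sources used here, and the mouse assembly is given there as GRCm39. The deposited values are a normalised signal, that is, gene reads divided by a size factor per library. Coordinates and principal transcripts were taken by Ensembl ID from GENCODE M21 (GRCm38), the promoter windows from RefSeq (GRCm38.p6).

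Reads were recovered by dividing each library by its smallest step. Of 116676 values, 100.0% came out whole (tolerance 1e-06, largest deviation 6.3e-09). A gene with 0 reads could lie at up to 3 reads, 0.0641 to 0.0783 CPM, and these limits cover counting error only. The 15948 genes reaching 10 reads in 2 or more libraries were tested with limma (trend option) on log2(value + 1) for genotype alone, two-sided, with Benjamini-Hochberg adjustment over all tested genes and a threshold of 0.05. On this scale the folds of sparsely covered genes are understated. The quasi-likelihood test of edgeR and the DESeq2 Wald test on the recovered reads, other pseudocounts, filters and scalings, the replicate number as a block, and fits without each library were alternatives. Of DESeq2's p-values, those without an adjusted value were left out of its counts. The numbers were taken to pair the libraries because the deviations of all 3 same-numbered pairs correlated above 0.1; differently numbered libraries gave r = -0.643 to 0.222, so number 3 (0.217) is weakly paired. No exact test of 3 against 3 libraries can go below p = 0.1. The limma and DESeq2 fits with and without the block, and edgeR without it, were tested on simulated reads. The simulated reads held no effect of the replicate number, so they cannot show how the blocked fits behave in the present libraries. R 4.3.3, limma 3.58.1, edgeR 4.0.16, DESeq2 1.42.0, Python 3.11.15 and matplotlib 3.10.9 were used.

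The 10 genes, the pathway lists and the marker lists were chosen with earlier results of these data known. Named are all 10 genes, of each pathway list the 2 genes with the lowest limma p and the 2 with the highest mean (or those past the threshold), the defining markers of other cell types, and the 3 genes most like each of the 10 genes, of which those of *Fabp4*, *Cebpb* and *Cd36* are given. Of the genes this rule names, 2 are not reported here. The correlations between the 10 genes were chosen after their values had been seen.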

Additional observations from a re-analysis of the deposited data

How the results depend on the processing

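The number of genes called over all genes tested was 0 in limma with each other filter, pseudocount and scaling, with the block and with each library left out, and 0 in edgeR with and without the block. It was 8 with DESeq2 and 64 with DESeq2 and the replicate block, and 144, 13 and 89 with DESeq2 and the block when pair 1, 2 or 3 was left out, of which 36, 9 and 32 genes are among the 64. The fits without a pair were chosen after seeing the data. Of the 10 genes, 1 was called with DESeq2 and the replicate block (*Fabp4*), 1 without pair 1 (*Fabp4*), 1 without pair 3 (*Lpl*) and 0 in the other fits. The replicate block changed no other call among the 10 genes. The cause of the difference between DESeq2 and the other tools was not tested.

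*Cebpb*, *Cebpd*, *Fabp4* and *Fabp5* stayed higher and *Plin2* lower in CharmeKO under all 20 alternatives. Without single libraries, *Cebpb* ranged from 0.25 to 0.95, *Cebpd* from 0.037 to 0.91, *Fabp4* from 1.58 to 3.06, *Fabp5* from 0.57 to 1.25, *Plin2* from -0.55 to -0.015, *Pparg* from -0.73 to 0.75, *Cebpa* from -0.30 to 0.18, *Zfp423* from -0.58 to 0.60, *Lpl* from -0.69 to 1.30 and *Cd36* from -1.23 to 1.43. The lowest *Fabp4* value came without CharmeKO 2 and the highest without CharmeKO 1. *Cd36* also changed sign with a pseudocount of 10 (0.049), edgeR (0.25), DESeq2 (0.25) and edgeR with the replicate block (0.029). Without the block, *Pparg* was at 0.67 with edgeR and 0.66 with DESeq2, beside 0.14 with limma. With the block it was at 0.12 and 0.10. *Zfp423* was at -0.36 with both tools without the block, beside -0.074 with limma, and at -0.078 and -0.087 with it. In the blocked DESeq2 fits, *Cebpa* was at 0.31 and *Zfp423* at 0.39 without pair 2, and *Pparg* at -0.88 and *Cd36* at 1.15 without pair 3. Within CharmeKO, *Fabp4*, *Lpl* and *Cd36* spanned 7.91-fold, 10.9-fold and 43.1-fold over 3 libraries, and within WT 1.98-fold, 9.27-fold and 13.9-fold. *Cd36* and *Zfp423* had 13 and 28 reads in their lowest library.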
